A study of Mus musculus with 6 samples.

Results

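The genes described here are the cytoplasmic ribosomal protein (RP) genes of the mouse, measured in single cells that had been isolated from melanomas. A gene was counted as a member if its symbol was Rpsa, Rplp0, Rplp1 or Rplp2, or Rpl or Rps followed by digits and at most 1 letter. This rule found 80 of the 32285 genes in the count tables, of which 31 encode proteins of the small (40S) subunit and 49 proteins of the large (60S) subunit. B16-F10 is a pigmented melanoma line of C57BL/6 origin, and the labels state that B16F10 cells were given to female C57BL/6 mice of 6-10 weeks. All animals behind the 6 samples received anti-PD1 (clone 29F.1A12, an antibody that blocks the PD-1 receptor of T cells), at 150 µg 3 times a week from day 7. The 3 samples called αPD-1 came from mice on vehicle (5% DMSO in PBS), and the 3 samples called αPD-1 + corin came from mice given 200 µg of corin intraperitoneally each day from day 6. Corin is a bivalent inhibitor of the CoREST complex that engages its histone deacetylase and its demethylase LSD1. An arm held 10 mice, and the labels do not tie a sample to a mouse or a pool of mice, so each p-value below measures the spread between samples, which may be technical.

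A ribosome carries 1 copy of nearly every RP, and the RP mRNAs are among the most abundant of any cell. Most of them begin with a 5′ terminal oligopyrimidine (TOP) tract, a C at the first base followed by a run of C and T, through which mTORC1 and LARP1 set how much of the mRNA is translated. Resting lymphocytes are known for small cell bodies in which RP mRNAs take a large part of the transcriptome. Malat1 is a long noncoding RNA that stays in the nucleus, and genes with the prefix mt- are transcribed from the mitochondrial genome. The shares of both are given beside those of the RP genes.

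The start sites of the members are shown first, since a TOP tract would lie there. RefSeq promoters of build GRCm38.p6 were listed for 60 of the 80 members. A C followed by 4 bases that were each C or T stood at the annotated start of 13 of the 60 members (21.7%) and at that of 3.01% of all 27025 genes in the table. Allowing the run to begin up to 10 bases to either side, 38 of 60 members (63.3%) and 34.4% of all genes held one. The following windows hold 15 bases before and 15 from the annotated start, 5′ to 3′, with the pyrimidine run nearest to the start in capitals. The first 6 members are examples with such a run at or within 4 bases of the start, and do not stand for all members. Among members not printed, Rps28 had no run that begins within 10 bases of the start, and in Rpl35 it began 7 bases before the start. Rplp0 and Rpl13, shown because both are highly expressed, have none that begins within 10 bases of it, and Rps27l, for which 2 starts are listed, is shown beside Rps27 because it is the paralog of that gene.
Rplp2 (chr7:141447636-141447665, + strand): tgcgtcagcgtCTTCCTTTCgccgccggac
Rps27 (chr3:90213634-90213663, - strand): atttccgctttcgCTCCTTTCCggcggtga
Rps18 (chr17:33955651-33955680, - strand): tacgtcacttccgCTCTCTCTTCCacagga
Rps10 (chr17:27635230-27635259, - strand): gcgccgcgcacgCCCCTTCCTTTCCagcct
Rps15a (chr7:118116133-118116162, - strand): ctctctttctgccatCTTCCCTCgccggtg
Rpl38 (chr11:114668565-114668594, + strand): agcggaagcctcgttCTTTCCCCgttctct
Rplp0 (chr5:115559452-115559481, + strand): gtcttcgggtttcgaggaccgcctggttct
Rpl13 (chr8:123102335-123102364, + strand): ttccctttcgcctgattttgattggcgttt
Rps27l (chr9:66946071-66946100, + strand): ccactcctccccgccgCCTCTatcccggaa
In the whole 300 bases, 250 before and 50 after the start, the letters CCGGAAG, the core bound by ETS factors such as GABP, stood on either strand in 25 of 60 members (41.7%) and in 9.93% of all genes. The letters GGGCGG stood in 60% of members and 38.2% of genes, CTTTCC in 53.3% and 29.3%, and TATAAA in 10% and 15.7%. CTTTCC can lie inside a pyrimidine run and the matches of different motifs can overlap, and a match in this window is a description of the letters and not of binding.

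The authors deposited 52899 barcodes, of which 28865 were kept as single cells of 600 to 4000 genes and at most 10% mt- UMIs. The median cell of a sample held 2815 to 4135 UMIs, each UMI being 1 captured RNA molecule read from its 5′ end, so that counts do not scale with transcript length. The cells fell into 25 clusters, formed without RP, Malat1 and mt- genes, and were named from markers. A name such as B cells stands for B-like throughout. Markers of the T list made up 0.245% to 0.350% of the UMIs of the T and NK cells and 0.00540% to 0.0190% of those of the monocytes and macrophages. Barcodes of melanoma cells, fibroblasts and endothelial cells were present although CD45+ cells had been selected. 1 cluster with markers of T and of B cells and 1 without markers were left out of the lineages. Of the barcode sequences, 299 occurred in 2 libraries and 52301 in 1.

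RP mRNAs made up a fraction of the transcriptome that differed widely between cell types. The share of UMIs in RP genes, averaged over the 6 samples, was 20.1% ± 3.20 (SD, n = 6) in B cells and 17.8% ± 1.32 in T and NK cells. It was 13.6% ± 0.369 in dendritic cells, 12.4% ± 1.90 in melanoma cells and 10.3% ± 1.82 in neutrophils. Endothelial cells had 9.19% ± 2.29, monocytes and macrophages 8.68% ± 0.399 and fibroblasts 8.36% ± 3.05. Lymphoid cells were thus at the top of the order, and the phagocytes and stroma at its base. T and NK cells were above dendritic cells in 6 of 6 samples by 4.25 ± 1.14 percentage points (exact paired permutation test, two-sided, p = 0.03125, the smallest that 6 pairs allow, adjusted p = 0.219 over 7 neighbouring pairs). B cells were above T and NK cells in 4 of 6 samples only (exact p = 0.188, adjusted p = 0.383). Dendritic cells were above melanoma cells in 5 of 6 samples (exact p = 0.219), and melanoma cells above neutrophils by 2.09 ± 2.07 points (exact p = 0.0625). The 3 lowest neighbours, from neutrophils through endothelial cells and macrophages to fibroblasts, differed by no more than 1.10 points, less than the spread between samples (exact p = 0.438 to 0.812).

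**Figure D1:**
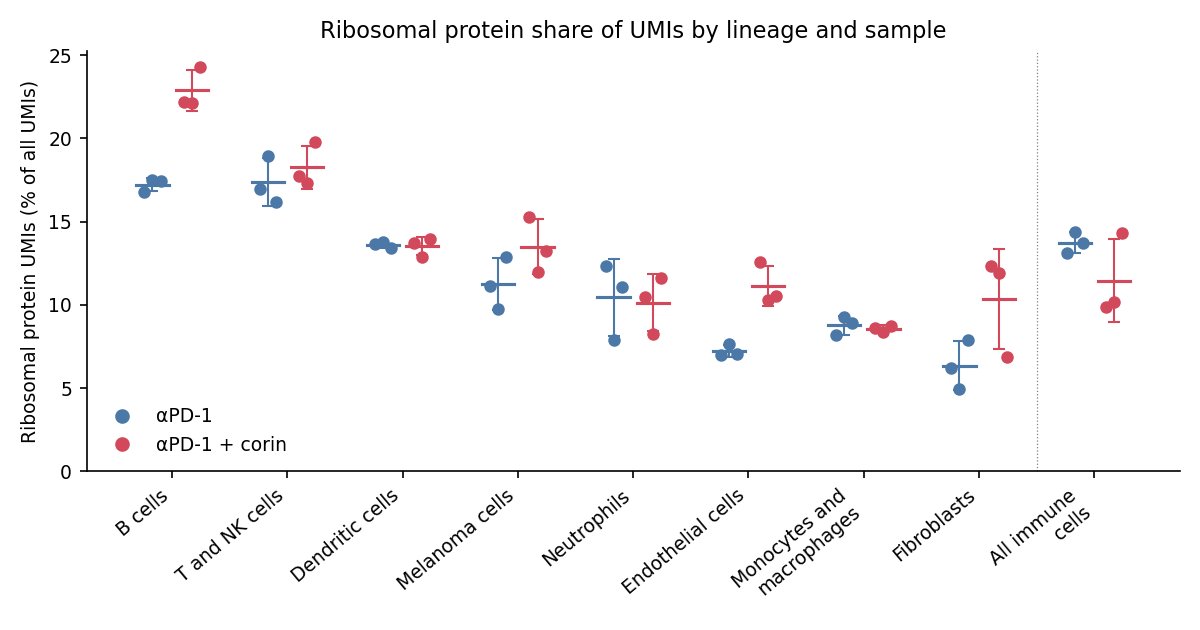
The vertical axis gives the percent of UMIs in the 80 RP genes for each lineage and, at the right, for all immune cells together. Points are samples (αPD-1 blue, αPD-1 + corin red), bars the mean and whiskers the SD of 3. B cells (16.8% to 24.3%) and T and NK cells lie at the top and macrophages (8.17% to 9.29%) near the base, and the 2 colours are apart in B and endothelial cells.

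Among B cells, T and NK cells, dendritic cells and macrophages, 4 pairs were also compared gene by gene. Of the 77 members with a mean of at least 10 CPM (the UMIs of a gene scaled to a common total per sample and lineage) over both lineages, 76 were higher in T and NK cells than in monocytes and macrophages in all 6 samples, where 44.4% of all genes compared were. For B cells against monocytes and macrophages it was 74 of 77 members and 19.5% of genes, and for dendritic cells against them 76 of 77 and 30.4%. T and NK cells were above dendritic cells in 66 of 77 members and in 34.1% of genes. The median ratio of the members was 0.99 on the log2 scale for T and NK cells over macrophages, beside 0.25 for all genes compared. These lineages were clustered on the other genes of the same cells, so the counts are given as a description.

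The same genes were not equally abundant. Rpl13, a large subunit protein, had the most UMIs of any member (3.19% of all RP UMIs), and Rplp1 (2.78%), Rps16 (2.33%) and Rps12 (2.22%) were among the next. Averaged over 6 samples, Rpl13 stood at 5490 CPM in T and NK cells, 7039 in B cells, 4311 in dendritic cells and 2800 in monocytes and macrophages. Rplp0, Rplp1 and Rplp2 build the stalk of the large subunit, which recruits the translation factors. Rplp1 was at 4729 CPM in T and NK cells, against 3470 for Rplp0 and 3087 for Rplp2, and in monocytes and macrophages the 3 were at 2456, 1276 and 1623. Rpsa, the small subunit protein also known as a laminin receptor precursor, was at 4516 CPM in T and NK cells and 1508 in monocytes and macrophages. In all, 76 of the 80 members each held at least 0.2% of the RP UMIs.

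The other 4 members were paralogs of other RP genes. Rps27l, a paralog of Rps27 that is known as a p53 target, held 0.168% of the RP UMIs and was seen in 41.6% of cells. Rpl3l, a paralog of Rpl3 known from striated muscle, gave 201 UMIs in all cells, and Rpl39l, known from the testis, gave 93. No UMI of Rpl10l, a testis paralog of the X-linked Rpl10, was counted. Of 28865 cells, 0.658% had a UMI of Rpl3l and 0.243% one of Rpl39l, levels at which free RNA from other cells cannot be told apart from expression.

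Beyond the common level, a few members took a different part of the RP pool in different lineages. Rps27 made up 0.828% of the RP UMIs in B cells and 0.315% in melanoma cells, a 2.63-fold range, and was also high in neutrophils (0.674% ± 0.219, SD over 6 samples). Its paralog Rps27l ran the other way. It made up 0.0272% of the RP UMIs in B cells, 0.0855% in T and NK cells, 0.163% in dendritic cells and 0.361% in melanoma cells, a 13.3-fold range. Rpl31, a large subunit protein, took 0.492% in T and NK cells and 0.981% in melanoma cells. Rpl36 took 0.701% in dendritic cells and 1.47% in melanoma cells. Rpl17 was instead lowest in melanoma cells, with 1.17% there and 2.24% in B cells. In melanoma cells the 6 samples lay close together beside these ranges, with an SD of 0.0393 for Rpl17 and 0.0309 for Rps27, while neutrophils varied more. RP genes have many processed pseudogenes and near-identical copies, to which a count table may give some of their reads. The 11 features named Rpl or Rps that the rule left out held UMIs equal to 2.16% of those of the members, of which the gene listed as Rps3a1 alone had 1.48%.

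**Figure D2:**
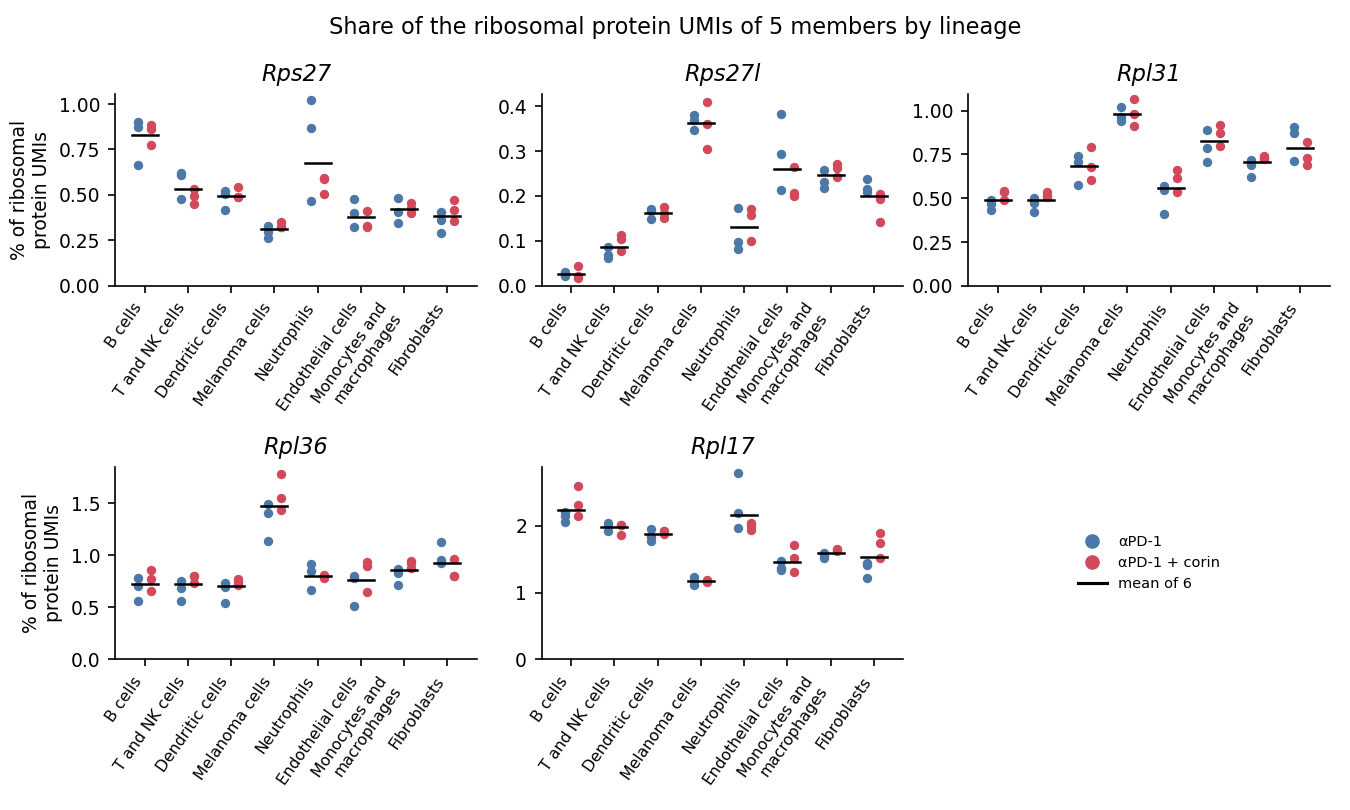
Each panel gives 1 member, with its percent of all RP UMIs on the vertical axis (each axis starts at 0 and has its own scale) and the 8 lineages on the horizontal axis. Points are samples and black bars the mean of 6. Rps27 and Rpl17 are highest in B cells (0.828% and 2.24%), and Rps27l, Rpl31 and Rpl36 in melanoma cells.

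Treatment was compared first over all immune cells, that is all kept cells except melanoma cells, fibroblasts and endothelial cells. The cluster with markers of T and of B cells and the cluster without markers were included here. RP genes held 13.1%, 14.4% and 13.7% of the UMIs in αPD-1 replicates 1 to 3 and 9.87%, 10.2% and 14.3% in the αPD-1 + corin replicates. Replicates 1 and 2 of αPD-1 + corin were below every αPD-1 sample, and replicate 3 was within their range. The difference of -2.28 percentage points was within the spread between samples (exact permutation test, two-sided, p = 0.3). The makeup of the samples differed as well. The cluster with markers of T and of B cells, with an RP share of 17.7%, held 623, 364 and 552 cells in αPD-1. In αPD-1 + corin it held 13, 17 and 8. Monocytes and macrophages were 4579 of 6576 immune cells in αPD-1 + corin replicate 1 and 1199 of 3525 in replicate 2, where neutrophils were a further 1185, while T and NK cells were 1748 of 3976 in replicate 3. When each sample was given the same mixture of 5 immune lineages, the αPD-1 samples were at 13.6%, 13.5% and 13.4% and the αPD-1 + corin samples at 14.6%, 13.8% and 15.7%. The groups then did not overlap, and the difference had turned to 1.18 points in the opposite direction (exact p = 0.1, the smallest that 3 against 3 allow). B cells, of which the αPD-1 + corin replicates hold 46, 46 and 11, enter that mean with the same weight as the larger lineages. Among the 5 lineages, B cells differed by 5.66 points and T and NK cells by 0.890. Dendritic cells differed by -0.0894 points, monocytes and macrophages by -0.204 and neutrophils by -0.330, so the mean does not stand for a rise in each lineage.

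Within lineages, the RP share was higher in all 3 αPD-1 + corin samples than in any αPD-1 sample in B and in endothelial cells. B cells had 16.8%, 17.5% and 17.4% in αPD-1 (780, 707 and 1076 cells) and 22.2%, 22.2% and 24.3% in αPD-1 + corin, 1.33 times as much. With lineages taken from the marker UMIs of each cell, the B cell difference was 2.65 points in place of 5.66 (17.4% against 20.0%). Endothelial cells had 7.02%, 7.64% and 7.03% in αPD-1 (21, 11 and 36 cells) and 12.6%, 10.3% and 10.6% in αPD-1 + corin (49, 22 and 27 cells), 1.54 times as much. Both had an exact p of 0.1, the smallest this design allows, and an adjusted p of 0.4 over 8 lineages. The Malat1 share went the other way in both. It was 1.06% to 1.08% in αPD-1 and 0.766% to 1.03% in αPD-1 + corin B cells, and 0.739% to 1.26% and 0.349% to 0.680% in endothelial cells. The mt- share of B cells was 2.58% to 3.12% and 3.47% to 4.21%, without overlap. The 8 B cell markers held 1.02% to 1.03% of the UMIs of the B cells in αPD-1 and 0.745% to 0.954% in αPD-1 + corin, also without overlap. In the endothelial cells, whose leading genes include the mural cell genes Rgs5 and Acta2, fibroblast markers held 0.186% to 0.656% of the UMIs over the 6 samples and endothelial markers 0.268% to 0.361%. Macrophage markers there held 0.0104% to 0.0192% in αPD-1 and 0.0261% to 0.165% in αPD-1 + corin. The part of these markers in the RP result was not tested. The part of Malat1-rich barcodes in the B cell difference is measured further on.

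In fibroblasts the RP share was 6.23%, 4.96% and 7.89% in αPD-1 and 12.3%, 11.9% and 6.89% in αPD-1 + corin. Replicate 3 of αPD-1 + corin lay among the αPD-1 samples while replicates 1 and 2 were well above them (exact p = 0.2). That replicate also had the highest Malat1 share of the 6 (1.45%, against 0.455% and 0.951% in the other two samples of its group). Macrophage markers held 0.0183% to 0.0205% of the fibroblast UMIs in αPD-1 and 0.0392% to 0.0569% in αPD-1 + corin. Genes of the B cell list held 0.134% to 0.166% and 0.0640% to 0.115%, and the part of both lists was not tested. In endothelial cells the B cell list held 0.0744% to 0.176% without a UMI of Cd79b, Ms4a1 or Fcmr. How much of its share in fibroblasts is RNA of B cells was not tested. Without the upper limit on genes per cell the fibroblast difference was 1.69 points in place of 4.00. Melanoma cells had 11.1%, 9.76% and 12.9% in αPD-1 and 15.3%, 11.99% and 13.2% in αPD-1 + corin, with overlap (exact p = 0.2). The other lineages showed no separation. Dendritic cells had 13.7%, 13.8% and 13.4% against 13.7%, 12.9% and 13.9% (exact p = 0.9), and monocytes and macrophages 8.17%, 9.29% and 8.90% against 8.64%, 8.35% and 8.76% (exact p = 0.6). Neutrophils had 12.4%, 7.90% and 11.1% from 21, 14 and 12 cells in αPD-1, and 10.5%, 8.26% and 11.6% in αPD-1 + corin (exact p = 0.8). The adjusted p over the 8 lineages was 0.4 to 0.9 for all of them.

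T and NK cells as 1 lineage had 17.0%, 19.0% and 16.2% in αPD-1 and 17.7%, 17.3% and 19.8% in αPD-1 + corin, and overlapped (exact p = 0.5). The difference of 0.890 points was 0.144 without αPD-1 + corin replicate 3 and 1.68 without αPD-1 replicate 2. This lineage was divided further, because its classes have very different RP shares. Naive T cells, marked by Tcf7, Lef1 and Ccr7, had the highest share of any cell in the tumor, with 26.4%, 27.3% and 25.9% in αPD-1. They were 302, 301 and 184 cells there and only 8, 7 and 15 cells in αPD-1 + corin, where their share was 32.1%, 36.5% and 29.1% and was not tested. NK cells, marked by Ncr1 and Klra genes, had 16.8%, 19.1% and 16.3% in αPD-1 and 21.0%, 21.8% and 20.3% in αPD-1 + corin, a difference of 3.65 percentage points. Cycling T cells, marked by Ube2c and Birc5, had 17.2%, 18.4% and 16.7% against 19.1%, 19.5% and 20.3%, a difference of 2.18 points. Neither class overlapped between the treatments (exact p = 0.1 each, adjusted p = 0.2 over 4 classes). Cytotoxic T cells had 18.9%, 20.7% and 20.3% against 21.2%, 19.5% and 23.0% (exact p = 0.4), and regulatory T cells (Treg) 17.5%, 18.8% and 16.1% against 18.2%, 17.1% and 20.6% (exact p = 0.5).

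**Figure D3:**
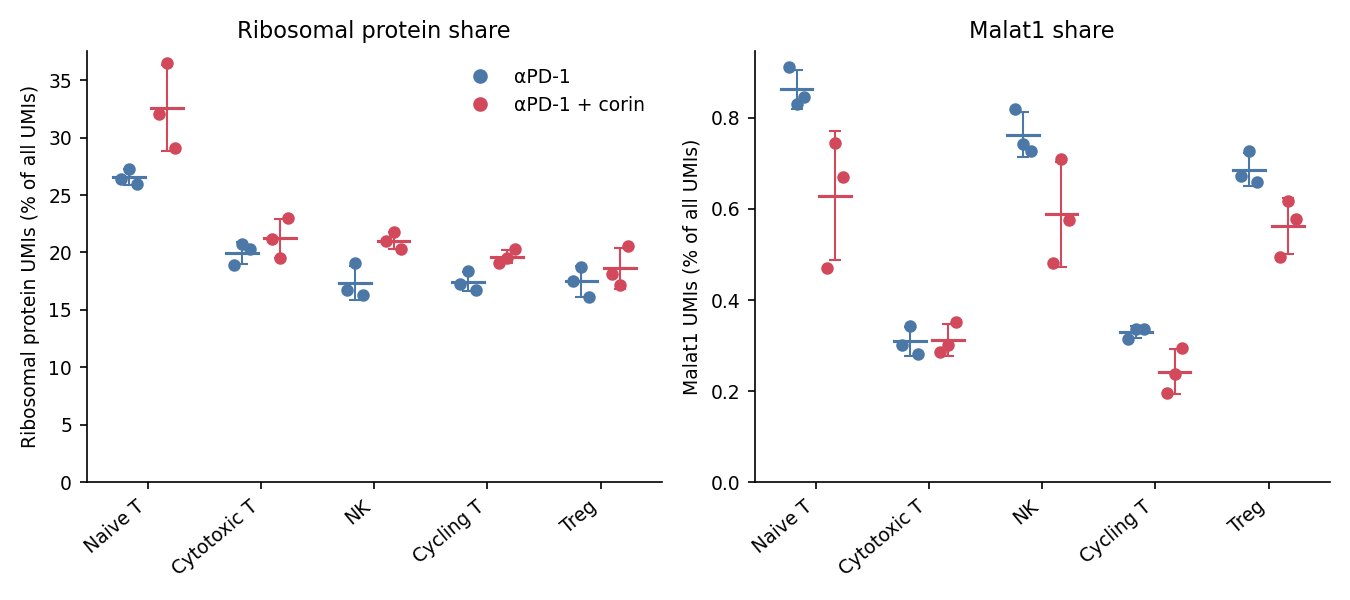
The left panel gives the percent of UMIs in RP genes and the right panel that of Malat1 for 5 classes of T and NK cells, with a point per sample (αPD-1 blue, αPD-1 + corin red), the mean as a bar and the SD of 3 as whiskers. Naive T cells, which have 7 to 15 cells in the αPD-1 + corin samples, are above every other class. In NK and cycling T cells the red RP points are all above the blue ones and the red Malat1 points all below them.

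When the 4 classes other than naive cells were given equal weight in each sample, the αPD-1 samples stood at 17.6%, 19.2% and 17.4% and the αPD-1 + corin samples at 19.9%, 19.5% and 21.0%. The groups no longer overlapped, and the difference was 2.05 percentage points in place of 0.890 (exact p = 0.1). With equal weight for the 3 clusters of the lineage that had enough cells, it was 0.107 points with overlap (18.8% against 18.9%, exact p = 0.9), so the result depended on how the lineage was divided. The Malat1 share moved with this result. It was 0.728% to 0.820% in αPD-1 and 0.481% to 0.709% in αPD-1 + corin NK cells, 0.315% to 0.338% and 0.196% to 0.295% in cycling T cells, and 0.659% to 0.728% and 0.496% to 0.617% in Treg, without overlap in any of the 3. In cytotoxic T cells it was 0.282% to 0.343% and 0.286% to 0.353%. Macrophage markers, 11 genes that were all detected, held 0.0477% to 0.0831% of the UMIs of αPD-1 and 0.0587% to 0.102% of those of αPD-1 + corin NK cells. In cycling T cells they held 0.0244% to 0.0418% and 0.0506% to 0.0904%. NK markers held 0.0265% to 0.0577% and 0.0662% to 0.117% of the UMIs of cycling T cells, without overlap. The NK list shares Gzma and Prf1 with the list of cytotoxic T cells, and it held 0.0859% to 0.146% of the UMIs of that class. In the NK class the whole NK list held 0.565% to 0.660% in αPD-1 and 0.353% to 0.570% in αPD-1 + corin. The part of these markers in the RP result was not tested. A further 1383 cells of the T and NK lineage lay in mixed subclusters, where genes of the macrophage list were raised. Their RP share was 13.2% to 16.6%. At least 2 UMIs of each of the T and macrophage lists were held by 88.2% and 60.2% of the cells there. Other classes held them too, with 63.8% of cytotoxic, 51.5% of cycling, 30.7% of regulatory and 20.8% of NK cells. The macrophage list includes Ly6c2, a leading gene of an unnamed T class of 430 cells, of which 58.6% held both lists. UMIs of this list in T and NK cells are therefore not a measure of macrophage RNA alone.

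Clusters with a low RP share and a high Malat1 share occurred in several lineages. Over the 25 clusters, the RP share ranged from 2.48% to 23.2% and the Malat1 share from 0.0737% to 3.68%, with a Spearman correlation of -0.673 (a description over 25 clusters that come from the same 6 libraries). T and NK cells, B cells, monocytes and macrophages, and melanoma cells each had 1 cluster with at least 1.5% Malat1, with 479, 420, 328 and 275 cells. In these the RP share was 4.55%, 4.23%, 2.48% and 3.83%, where the rest of the same lineages had 19.0%, 19.4%, 8.82% and 15.2%. Malat1 stood at 1.95% against 0.534% in the T and NK cells, 2.04% against 0.919% in B cells, 3.68% against 0.807% in macrophages and 2.56% against 0.295% in melanoma cells. The mt- share was higher as well, with 3.56% against 2.49% in T and NK cells and 5.07% against 2.51% in macrophages. Depth did not follow 1 direction. The median UMIs per cell were 1563 against 2855 in T and NK cells but 5314 against 4512 in melanoma cells. The 2 shares did not always go together, since an unnamed cluster of 528 cells had 3.36% RP with 0.882% Malat1, and a plasma cell cluster of 207 cells had 9.93% RP with 1.62% Malat1. At the other end, a cluster of 776 melanoma cells had 19.8% RP and 0.0737% Malat1.

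**Figure D4:**
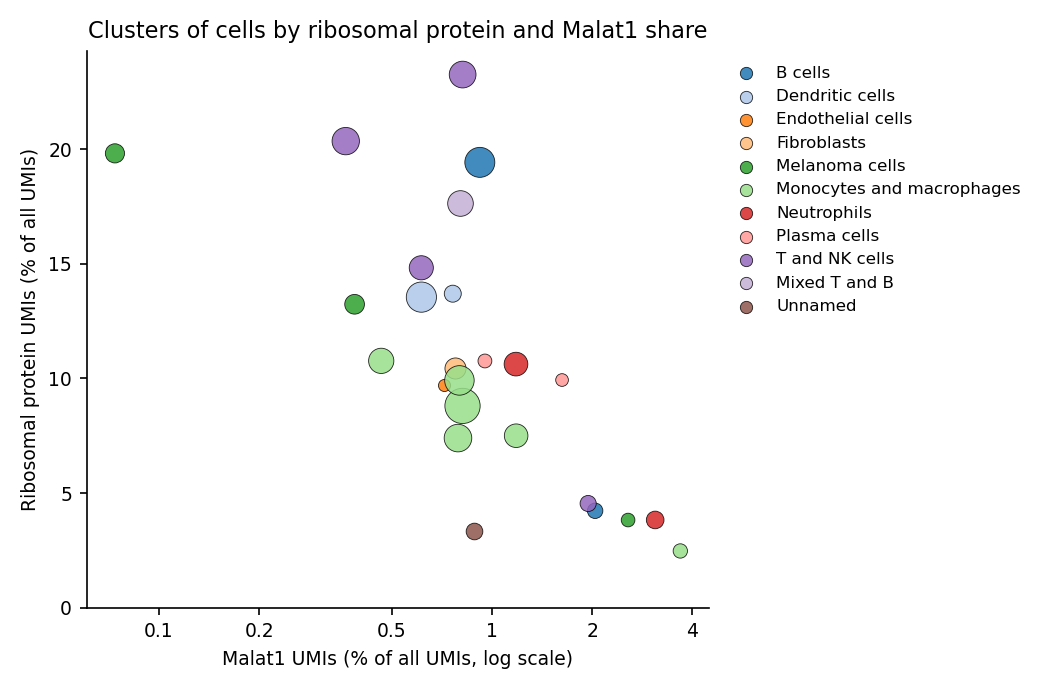
Each circle is 1 of the 25 clusters, with its Malat1 share on the horizontal axis (percent of UMIs, log scale), its RP share on the vertical axis (percent of UMIs), its area growing with its number of cells and its colour giving the lineage. The Malat1-rich clusters of T, B, macrophage and melanoma cells and 1 of neutrophils gather below 5% RP, and a melanoma cluster with 0.0737% Malat1 has 19.8% RP.

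All members were low in these clusters. In the cluster of T and NK cells, each of the 77 members with at least 20 UMIs was below its level in the other cells of the lineage, with a ratio of 0.174 (Rps18) to 0.320 (Rps27) and a median of 0.236. In B cells the ratios ran from 0.178 (Rpl22) to 0.560 (Rps27l) around a median of 0.218. In macrophages they ran from 0.2005 (Rpl10) to 0.432 (Rpl4) around 0.277, and in melanoma cells from 0.137 (Rps4x) to 0.388 (Rps19) around 0.252. Since the clusters were formed from the same cells, the ratios carry no test, and the members at either end were named after their values had been seen.

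The barcodes of these 4 clusters were unequally spread over the treatments. They were 18.4%, 11.4% and 15.9% of the T and NK cells in αPD-1 and 0.678%, 2.85% and 1.26% in αPD-1 + corin. They were 136, 130 and 152 of the B cells in αPD-1, and 0, 2 and 0 of the 46, 46 and 11 B cells in αPD-1 + corin. Of monocytes and macrophages they were 8.19%, 8.06% and 5.35% against 0.480%, 2.75% and 3.20%. Of melanoma cells they were 32.5%, 27.4% and 10.9% against 7.23%, 15.8% and 17.3%. The neutrophil cluster, of 621 cells with 3.83% RP and 3.09% Malat1, had the opposite spread, with 2, 3 and 0 cells in αPD-1 and 93, 502 and 21 in αPD-1 + corin, and it was kept in the comparisons. Leaving the 4 clusters out, the difference in B cells went from 5.66 to 3.70 percentage points (19.3% against 23.0% as means), still with an exact p of 0.1, and that in melanoma cells from 2.25 to 0.905 points. The difference in T and NK cells as a whole turned from 0.890 to -0.214 points. Without them the difference was 3.67 points in NK cells and 2.15 points in cycling T cells. This removal was chosen after the data had been seen.

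The members were next tested one by one on summed UMIs per sample with edgeR's quasi-likelihood test and Benjamini-Hochberg adjustment over all genes. In T and NK cells, 2 of 77 members tested rose in αPD-1 + corin and none fell, where 5.37% of the 10967 genes tested rose and 8.71% fell, so the share of members called was below the background. At an unadjusted p under 0.05, 19 members were higher and 0 lower. Fold changes were above 0 for 67 of 77 members, with a median of 0.16 on the log2 scale beside 0.01 for all genes. 20 members were higher without overlap between the groups, where 16.6% of genes were, and 0 were lower, where 17.9% were.

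Rps27l rose the most. It had 101, 132 and 135 CPM in αPD-1 T and NK cells and 194, 200 and 160 in αPD-1 + corin, so that all 3 treated samples lay above all others (log2 fold change 0.58, SE 0.14, edgeR adjusted p = 0.0186). Of the most abundant members described here, none passed. Rpl13 was at 5118 ± 431 CPM in αPD-1 and 5959 ± 644 in αPD-1 + corin (adjusted p = 0.293), and Rplp1 at 4621 ± 484 and 4909 ± 363 (adjusted p = 0.705). Rplp0 was at 3372 ± 578 and 3623 ± 369, Rplp2 at 2814 ± 322 and 3419 ± 336, and Rpsa at 4396 ± 681 and 4706 ± 517, with adjusted p of 0.689, 0.178 and 0.707. Rps27l was no longer called without the Malat1-rich clusters, where 0 members passed, 44 of 77 were above 0 and the median was 0.03. Without the mixed T and macrophage subclusters, 12 members were called higher, as were 810 of all 9847 genes. Leaving out αPD-1 replicate 2 gave 9 calls (443 of all 11215 genes were higher), and leaving out αPD-1 replicate 1 or αPD-1 + corin replicate 2 gave 0.

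In the class of NK cells, fitted alone, all 77 members tested had a fold change above 0, with a median of 0.33 beside 0.00 for all 2752 genes tested. There 3 members rose and 0 fell, against 0.254% and 0.581% of all genes, and 47 members were higher at an unadjusted p under 0.05. The groups did not overlap for 54 members, all higher, where 9.23% of genes were higher without overlap and 7.05% lower. The 3 were small subunit genes. Rps28 had 447, 712 and 755 CPM in αPD-1 and 1180, 1169 and 1012 in αPD-1 + corin (log2 fold change 0.80, SE 0.20, edgeR adjusted p = 0.0455). Rps15a, whose start is shown above, had 3067, 4520 and 3826 CPM against 5680, 5874 and 5409 (log2 fold change 0.57, SE 0.14, edgeR adjusted p = 0.0455). Rps12 had 3780, 4320 and 4137 CPM against 6111, 6208 and 5279 (log2 fold change 0.52, SE 0.13, edgeR adjusted p = 0.0472). In all 3 the lowest treated sample was above the highest αPD-1 sample. Rpl13 had 6588, 6617 and 5905 CPM against 8736, 8601 and 8706 and just missed the threshold (adjusted p = 0.0593). The 3 calls were kept in number without the Malat1-rich clusters, whereas the count was 0 when αPD-1 replicate 1 or 3 or αPD-1 + corin replicate 1 or 2 was left out, and 7 without αPD-1 + corin replicate 3 (15 of all 3102 genes were higher). With library sizes set to the RP UMIs, so that a member is compared with the other members, no member passed here or in any other fit.

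Cycling T cells showed 0 members called in either direction (0.0553% of 5426 genes higher, 0.0737% lower), with 29 higher at an unadjusted p under 0.05. Of their 77 members, 75 were above 0, with a median of 0.23, and 40 were higher without overlap (6.76% of genes), with 0 lower (5.81%). Rps28 was at 575 ± 87.5 CPM in αPD-1 and 838 ± 9.60 in αPD-1 + corin (adjusted p = 0.442). In Treg also 0 members were called (0.145% of genes higher and 0.311% lower), 10 were higher at an unadjusted p under 0.05, and the median was 0.13. There 14 members were higher without overlap, where 6.35% of genes were, and 0 lower, where 7.3% were. The fits of these classes were added after the data had been seen.

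Among the 8 fits, the median was highest in fibroblasts with the filters used here. All 77 members tested had a fold change above 0, between 0.07 and 1.12 on the log2 scale with a median of 0.69, where that of all 6903 genes was -0.01. Without the upper limit of 4000 genes per cell, the median was 0.19 and 75 of 78 members were above 0. None passed the threshold (1% of genes were called higher and 1.16% lower), while 40 were higher and 0 lower at an unadjusted p under 0.05. Rpl13 had 2764, 1870 and 2676 CPM in αPD-1 and 4085, 4145 and 2691 in αPD-1 + corin (log2 fold change 0.58, SE 0.32, edgeR adjusted p = 0.290). As in the summed share, replicate 3 of αPD-1 + corin fell within the αPD-1 range, and without it 49 of 77 members were called higher, as were 485 of all 7200 genes tested in that fit, while 420 genes were lower. Only 17 members were higher without overlap (12.6% of genes), and 0 lower (13.6%). In melanoma cells 76 of 77 members were above 0 with a median of 0.28, and 0 were called, as were 0% of all genes in each direction. 6 members were higher at an unadjusted p under 0.05. 1 member was higher without overlap (6.8% of genes) and 0 lower (6.14%). Without the Malat1-rich cluster the median in melanoma cells was 0.06 and 55 members were above 0.

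Dendritic cells and macrophages showed small shifts. In dendritic cells 50 of 77 members were above 0, the median was 0.06 and 0 were called (0.197% of 10165 genes higher, 0.502% lower), with 11 higher and 1 lower at an unadjusted p under 0.05. There 16 members were higher without overlap (8.49% of genes) and 3 lower (10.3%). In monocytes and macrophages 60 of 78 members were above 0, with a median of 0.10, and 0 were called (0.0512% of 11709 genes in each direction), with 10 higher and 0 lower at an unadjusted p under 0.05. There 24 members were higher without overlap (10.9% of genes) and 3 lower (11.7%). Rplp1 in these cells had 2087, 2459 and 2249 CPM in αPD-1 and 2851, 2484 and 2694 in αPD-1 + corin, without overlap but without a call (log2 fold change 0.24, SE 0.12, edgeR adjusted p = 0.308). Rpl3l, tested in this lineage alone, stood at 2.22 ± 0.249 and 2.88 ± 0.769 CPM.

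**Figure D5:**
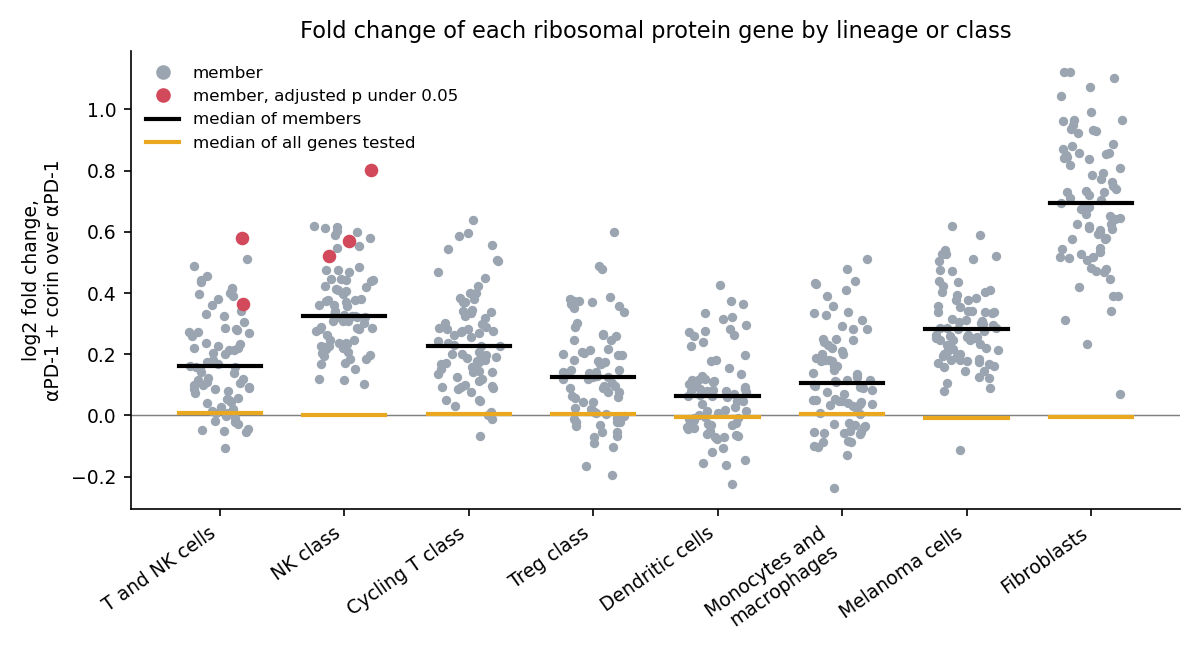
Each point is 1 RP gene, with its log2 fold change of αPD-1 + corin over αPD-1 on the vertical axis, for 5 lineages and 3 classes of T and NK cells. Black bars give the median of the members and yellow bars that of all genes tested, and red points passed an adjusted p of 0.05. The members lie above the yellow bar in most columns, with medians from 0.06 in dendritic cells to 0.69 in fibroblasts, and red points occur in T and NK cells (2) and in the NK class (3).

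The balance of the subunits was read as the ratio of small to large subunit UMIs. In T and NK cells it was 0.771, 0.769 and 0.770 in αPD-1 and 0.754, 0.756 and 0.758 in αPD-1 + corin, a difference of -0.0139 without overlap (exact p = 0.1, adjusted p = 0.4 over 8 lineages). Treg had 0.755, 0.760 and 0.757 against 0.744, 0.743 and 0.739, also without overlap. In fibroblasts the order was the opposite, with 0.647, 0.619 and 0.678 against 0.724, 0.715 and 0.688. The mean log2 CPM over small subunit members minus that over large subunit members, which weights each gene equally, differed between the treatments by only 0.000873 in T and NK cells, with the sign reversed. Across lineages the ratio of small to large subunit UMIs was highest in B cells (0.766 to 0.806). It was lowest in fibroblasts (0.619 to 0.724), endothelial cells (0.645 to 0.715) and melanoma cells (0.636 to 0.694).

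Other genes of the ribosome pathway were read from lists. Of 22 further TOP mRNAs such as Eef1a1 and Rack1, 0 were called in any of the 8 fits, while 21 of 22 were above 0 in T and NK cells (median 0.20) and 22 of 22 in fibroblasts (median 0.60). Of 78 mitochondrial ribosomal proteins, which translate the transcripts of the mitochondrial genome, 12 rose in T and NK cells and none fell, with a median of 0.24, where 5.37% of all genes rose and 8.71% fell. Mrpl34 had 46.9, 43.4 and 40.5 CPM in αPD-1 and 81.8, 61.1 and 60.9 in αPD-1 + corin (log2 fold change 0.58, edgeR adjusted p = 0.0182). Mrpl28 (log2 fold change 0.58, adjusted p = 0.0475) and Mrps36 (0.54, adjusted p = 0.0172) rose without overlap too. Of 44 ribosome biogenesis genes, 1 rose in T and NK cells (5.37% of all genes did), Polr1c, a subunit of RNA polymerases I and III (log2 fold change 0.48, adjusted p = 0.0364), and the median was -0.01. None of these lists had a call in another fit.

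Of 16 regulators of RP mRNA translation, 2 fell in T and NK cells, where 8.71% of all genes fell, a share near that of the list. Both are known to restrain mTORC1. Sesn1, which encodes sestrin 1, had 110, 97.8 and 101 CPM in αPD-1 and 60.0, 44.1 and 47.2 in αPD-1 + corin (log2 fold change -1.08, SE 0.13, edgeR adjusted p = 0.000643). Ddit4, which encodes REDD1, had 130, 119 and 104 CPM and then 60.0, 75.4 and 62.5 (log2 fold change -0.82, SE 0.13, edgeR adjusted p = 0.00250). In Treg fitted alone, Ddit4 had 299, 200 and 166 CPM in αPD-1 and 78.2, 123 and 97.7 in αPD-1 + corin (log2 fold change -1.10, adjusted p = 0.0358). Naive T cells, which were 184 to 302 cells in an αPD-1 and 7 to 15 in an αPD-1 + corin sample, and the Malat1-rich cluster lie within the sums of this lineage, and their part in these calls was not tested. The 4 paralogs outside the rule (Rpl22l1, Rpl7l1, Rpl36al and Rps27rt) had no call.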

How the data were processed

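Single CD45+ cells were profiled with 10x Genomics GEM-X 5′ chemistry in 6 samples. Per the labels, the authors made the deposited count matrices with Cell Ranger 8.0 and build GRCm39, and each value is a whole number of UMIs per gene and barcode that was not normalised. Barcodes with 600 to 4000 genes and at most 10% mt- UMIs were kept. Barcodes with the highest Scrublet scores (scanpy 1.11.5) in each library were taken as doublets and removed. Their number was set in advance at 0.4% of barcodes per 1000 barcodes, so larger libraries lost a larger share. It came to 2002, some of which also failed the other filters. The cells of all samples were clustered with Seurat 5.3.0 and SCTransform (sctransform 0.4.2) at a resolution of 0.8, leaving RP, Malat1 and mt- genes out of the clustering. Each kept sample held 16636062 to 33276505 UMIs.

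Shares were taken from UMIs summed per sample and lineage with at least 10 cells in each sample, and compared by two-sided exact permutation tests (scipy 1.17.1) with Benjamini-Hochberg adjustment. Lineages were ordered with an exact sign-flip test over the 6 samples. Genes were tested on sums of at least 20 cells and 50000 UMIs per sample with edgeR 4.0.16 (R 4.3.3), using filterByExpr, TMM and the quasi-likelihood test without a replicate block. The script was tested on simulated data. Fold changes are from that fit, and CPM are UMIs scaled to a common total of the sum.

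Genes named are the 5 members with the highest mean CPM, Rplp0, Rplp1, Rplp2, Rpsa, the paralogs Rps27l, Rpl3l, Rpl10l and Rpl39l (Rps4l was not in the gene list), up to 3 members per fit and direction past the threshold without overlap, the 5 members that vary most between lineages among those with at least 0.2% of RP UMIs, and up to 3 genes per list and fit. The members and lists were chosen with earlier results of these data known. Promoter sequences are from RefSeq (GRCm38.p6), and no coordinate was carried over to GRCm39. Some genes that this rule names are not reported here by name.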

Additional observations from a re-analysis of the deposited data

Results flagged for a closer look

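In 2 measures, the treatments did not overlap in either of 2 lineages, and the differences of the 2 lineages had opposite signs. The ratio of small to large subunit UMIs differed by 0.0607 in fibroblasts (αPD-1 + corin minus αPD-1) and by -0.0139 in T and NK cells, without overlap between the treatments in either. The mt- share of UMIs differed by 0.998 percentage points in B cells, where the αPD-1 + corin samples hold 46, 46 and 11 cells, and by -0.256 points in T and NK cells. The difference between the lineages was not tested in either case.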

How the results depend on the processing

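The RP share kept the direction of its difference in B, endothelial, melanoma cells and fibroblasts under every alternative that gave a value. So did that of the 4 T and NK classes. The endothelial value without the upper limit on genes is left out of this, for the reason given below. In dendritic cells, where the difference was near 0, it turned to 0.593 percentage points with LogNormalize, 0.0668 with RP, Malat1 and mt- genes kept in the clustering, 0.0454 and 0.519 at resolutions of 0.4 and 1.2, 0.577 without doublet removal, 0.641 with a mt- limit of 5%, 1.39 with lineages from marker UMIs, 0.321 as a mean of single cells and 0.396 with the same mixture of clusters. Monocytes and macrophages turned to 0.0461 as a mean of single cells and 0.273 with the same mixture of clusters, and neutrophils to 0.322 with the mt- limit of 5%. T and NK cells turned to -0.478 with LogNormalize, -0.573 with lineages from marker UMIs and -0.214 without the Malat1-rich clusters. All immune cells turned to 1.18 with the same lineage mixture. As a mean of log2 CPM, the balance of small to large subunit members turned to 0.0360 in B cells, 0.00721 in dendritic cells, 0.0314 in melanoma cells and 0.000873 in T and NK cells. Leaving out each sample gave -0.297 to 0.223 points in dendritic cells, -0.512 to 0.0466 in macrophages and -1.61 to 0.621 in neutrophils, and ratios of -0.00849 to 0.0117 in B cells, -0.00751 to 0.00241 in dendritic cells and -0.0131 to 0.0180 in neutrophils. In melanoma cells it gave 1.36 to 3.06 points around 2.25, in T and NK cells 0.144 to 1.68 around 0.890. Without the upper limit on genes, the difference was 1.69 in fibroblasts and 1.18 in melanoma cells. Cells named endothelial then gave 2.65, but 368 of them formed a cluster led by Siglech, Klk1 and Ccr9. A cluster with the same leading genes was counted with dendritic cells in the main setting, so 2.65 is not an endothelial result. The cause of these turns was not tested.

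Brackets give the number of all genes called higher in the same fit. The 2 members called higher in T and NK cells became 4 with RLE size factors (581 of 10967). With DESeq2 they were 10 (377 of 10967) and without a filter 9 (911 of 20748). Without the mixed T and macrophage subclusters they were 12 (810 of 9847), and with the mt- limit of 5% 1 (500 of 10765). They became 0 with RP library sizes (84 of 10967) and equal numbers of cells (214 of 8911). No upper limit on genes (146 of 11637), lineages from marker UMIs (314 of 10133) and no Malat1-rich clusters (195 of 10786) also gave 0. The 3 of the NK class became 7 with DESeq2 (11 of 2752) and 1 without a filter (12 of 13851). With RP library sizes they became 0 (0 of 2752). Fibroblasts had 9 with DESeq2 (138 of 6903) and 4 without a filter (357 of 19547). Macrophages had 1 with DESeq2 (159 of 11709) and dendritic cells 3 without a filter (419 of 19773). Leaving out each sample gave 0 to 9 calls in T and NK cells and 0 to 7 in the NK class. The most came in fits with 443 of 11215 and 15 of 3102 genes higher. In fibroblasts it gave 0 to 49 calls, the most with 485 of 7200 genes higher. In macrophages it gave 0 to 3, where the 3 came without αPD-1 + corin replicate 3. In that fit 1125 of 11906 genes were higher, a larger share than that of the members. With the replicate block, 1 member was called in T and NK cells (363 of 10967) and 0 in the NK class (1 of 2752). The block changed no other count of members. Same-numbered samples correlated between -0.178 and 0.123. So few pairs cannot decide whether they were processed together, and the sample titles give only a number.

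The removal of Malat1-rich clusters and of the mixed T and macrophage subclusters was chosen after the data had been seen. So were the same mixtures of clusters and of T classes, and the fits of single classes. Under the mt- limit of 5%, B cells had as few as 7 cells in a sample and gave no value. Too few cells were also left for endothelial cells under 4 settings and for neutrophils with lineages from marker UMIs. With 3 samples a group, the exact tests could not pass the threshold, so shares carry no calls. UMIs read from 5′ ends do not separate members from pseudogenes or near-identical copies.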

Other observations

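Barcodes that the filters removed had RP shares of their own. Those with under 600 genes held 2.84% to 6.92% of their UMIs in RP genes over the 6 samples, with 16.8% to 49.0% in mt- genes. Those with more than 4000 genes held 13.8% to 15.2%, and their mt- share was 2.35% to 2.81%. Plasma cells, which had 290, 34 and 160 cells in αPD-1 and 6, 4 and 2 in αPD-1 + corin, had an RP share of 9.75% to 20.8% and were not compared.

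A cluster of 528 cells without lineage markers had an RP share of 3.36%. Within T and NK cells, a class of 430 cells with Klra6, Klra1, Klra7 and Cd160 among its leading genes, which stayed unnamed, had an RP share of 24.1%, next to that of the naive T cells.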
